A study of Mus musculus with 12 samples.

Results

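The Bcl-2 family decides whether a cell keeps its mitochondria intact or dies by apoptosis, and the chromatin of 8 of its genes was described across the 3 effector subsets of thymic invariant natural killer T (iNKT) cells, a T cell lineage that recognises lipids presented by CD1d. The genes were Bcl2, Bcl2l1, Mcl1, Bcl2a1b and Bcl2a1d, whose products protect the cell, Bcl2l11 and Bbc3, whose products promote death, and Bax, which carries it out. Their members in the data are the regions that overlap the body of 1 of these genes or lie within 10 kb on either side of it, which gave 70 of the 63309 regions of the table. Bcl2 holds 17 of them, Bcl2l1 10, Bcl2l11 9, Mcl1 8, Bcl2a1b and Bcl2a1d 7 each, and Bax and Bbc3 6 each. Chromatin accessibility was measured by ATAC-seq, in which a transposase inserts adapters into open DNA, and every value below is a log2 normalised number of insertions per kilobase of a region of 500 bp unless it is called a difference. The cells were iNKT1, iNKT2 and iNKT17 cells from the thymi of untreated 8- to 9-week-old C57BL/6 mice, which are wild type, and of Hivep3-/- mice on the C57BL/6 background, which lack the zinc finger protein HIVEP3 from the germline on, in all cells. With 2 libraries per subset and genotype there were 12 libraries. Thymi were pooled, the subsets were sorted by CD122, ICOS, Izumo1r and CD138, transposed together and separated again by ICOS and CD138, so that a library is not a single mouse, although the sample titles number mice. Nothing given for the samples says that both libraries of a group came from separate pools, so that p-values measure the spread between libraries.

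BCL-2, BCL-XL (from Bcl2l1), MCL-1 and A1 (from the Bcl2a1 genes) sit at the outer mitochondrial membrane and hold the pore former BAX in check. The BH3-only proteins BIM (from Bcl2l11) and PUMA (from Bbc3) bind these guardians and free or activate BAX, after which cytochrome c leaves the mitochondrion and caspases are switched on. In lymphocytes, cytokines such as interleukin-7 and interleukin-15 are known to maintain Bcl2 through STAT5, NF-kB is known to induce A1, and BIM is the main killer of thymocytes that are deleted by selection.

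The subset labels were checked on promoters of marker genes. Over the 4 libraries of a subset, promoter accessibility of Ccr6 was 4.77 to 4.96 in iNKT17 cells and at most −0.1 in the other subsets, Tbx21 was highest in iNKT1 (5.15 to 5.37) and Izumo1r in iNKT2 (5.99 to 6.39), while Gata3 was alike in all subsets. Of 9 markers of B cells, myeloid cells and double-positive thymocytes, 8 have no promoter region in the table and Pax5, of B cells, has one at 2.83 to 3.58 in iNKT1, 4.4 to 4.69 in iNKT2 and 4.35 to 4.80 in iNKT17 cells. The part of such cells in the subset differences below was not tested. Hivep3 has 21 regions, of which 20, 18 and 12 were tested in iNKT1, iNKT2 and iNKT17. Over all 21, tested or not, the genotypes differed by −0.79 to 1.31, each under 3-fold, so that accessibility does not check the genotype labels. Libraries numbered 2 were above those numbered 1 in all 6 groups at 9 of the 70 members (12.9%, against 7.25% of all regions), mostly promoters, with a median GC content of 70.8% against 48.6% over the members. Over the whole series, regions of this order also had a higher median GC content (64.8% against 50.0%). The libraries numbered 2 were lower in all 6 groups at 5 members (7.14%, against 7.51% of all regions).

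The 8 promoters were open in every library. Of the regions within 1000 bp of a start site, the one with the highest mean was taken for each gene. All regions have the same length, but these promoters differ in GC content, from 47.4% at both A1 genes to 75.8% at Bcl2l11. Of their 50-base words, 46.1% at Bcl2a1b and 35.3% at Bcl2a1d occur once in the genome, against 100% at the others. The order of the genes is therefore given as a description, and the part of these features in it was not tested. Bcl2l1 (6.85 to 7.11 over the 12 libraries) and Bcl2l11 (6.63 to 7.41) had the highest means, followed by Bbc3 (6.46 to 7.07), Bcl2a1b (6.62 to 7.07) and Bcl2a1d (6.41 to 7.10), and the ranges of these 5 overlap. Mcl1 (5.78 to 6.28) and Bcl2 (5.42 to 6.02) were lower and overlapped each other, and Bax (4.65 to 5.42) was the lowest, its range touching that of Bcl2. The mean of these promoters stood at percentile 73.06 of all regions for Bax and between 82.0 and 96.28 for the others. None of the 8 was called at 3-fold in any comparison of subsets or genotypes, and the spread over all 12 libraries, from 0.26 for Bcl2l1 to 0.78 for Bcl2l11, was small beside that of the intronic regions described next.

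At many of the regions, iNKT1 cells stood apart. All 4 iNKT1 libraries lay above the other 8 libraries in 21 of the 70 regions, of which 14 belong to Bcl2, 4 to Bcl2l11 and 3 to Bcl2l1, whereas 16.2% of all regions have this order. Most of the 21 lie away from promoters. The Bcl2 regions 0.49 and 1.8 kb from the start and the Bcl2l11 region at chr2:128125747-128126246 are promoter regions. All 4 iNKT17 libraries were the lowest in 10 regions, 4 each of Bcl2 and Bcl2l11 and 1 each of Bcl2l1 and Bbc3 (11.1% of all regions). The other orders were held by fewer members, with iNKT1 lowest in 3 (12.1% of all), iNKT2 highest in 5 (13.1%) and lowest in 5 (7.06%), and iNKT17 highest in 4 (12.7%). In bulk libraries, a larger share of cells with an open region and a wider opening in each cell cannot be told apart.

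In tests, regions with a linear mean of 5 or more in one of the compared groups were used, and a region was called at an adjusted p under 0.1 in limma and at least 3-fold. In C57BL/6 mice, 13 of 67 tested members were called higher in iNKT1 than in iNKT2 and 0 lower, against 7.33% and 8.71% of all tested regions. Against iNKT17, 18 of 69 were higher in iNKT1 and 2 lower (9.72% and 10.8%), and between iNKT2 and iNKT17 3 of 58 were higher and 3 lower (7.72% and 8.49%). In Hivep3-/- mice the counts were 14 higher and 3 lower of 67 for iNKT1 against iNKT2 (8.77% and 8.54%), 15 and 4 of 69 for iNKT1 against iNKT17 (9.48% and 9.83%) and 2 and 4 of 59 for iNKT2 against iNKT17 (7.33% and 8.25%). At an unadjusted p under 0.05 no member was 3-fold lower in C57BL/6 iNKT1 than in iNKT2 cells either. The median log2 difference between iNKT1 and iNKT2 was 0.12 over the members and 0.01 over all regions in C57BL/6, and 0.18 and −0.01 in Hivep3-/- mice. Many of these regions are near closed outside 1 subset, and with 5 added to the linear values before the logarithm the 6 counts of called members fell to 2, 8, 3, 4, 6 and 3.

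**Figure D1:**
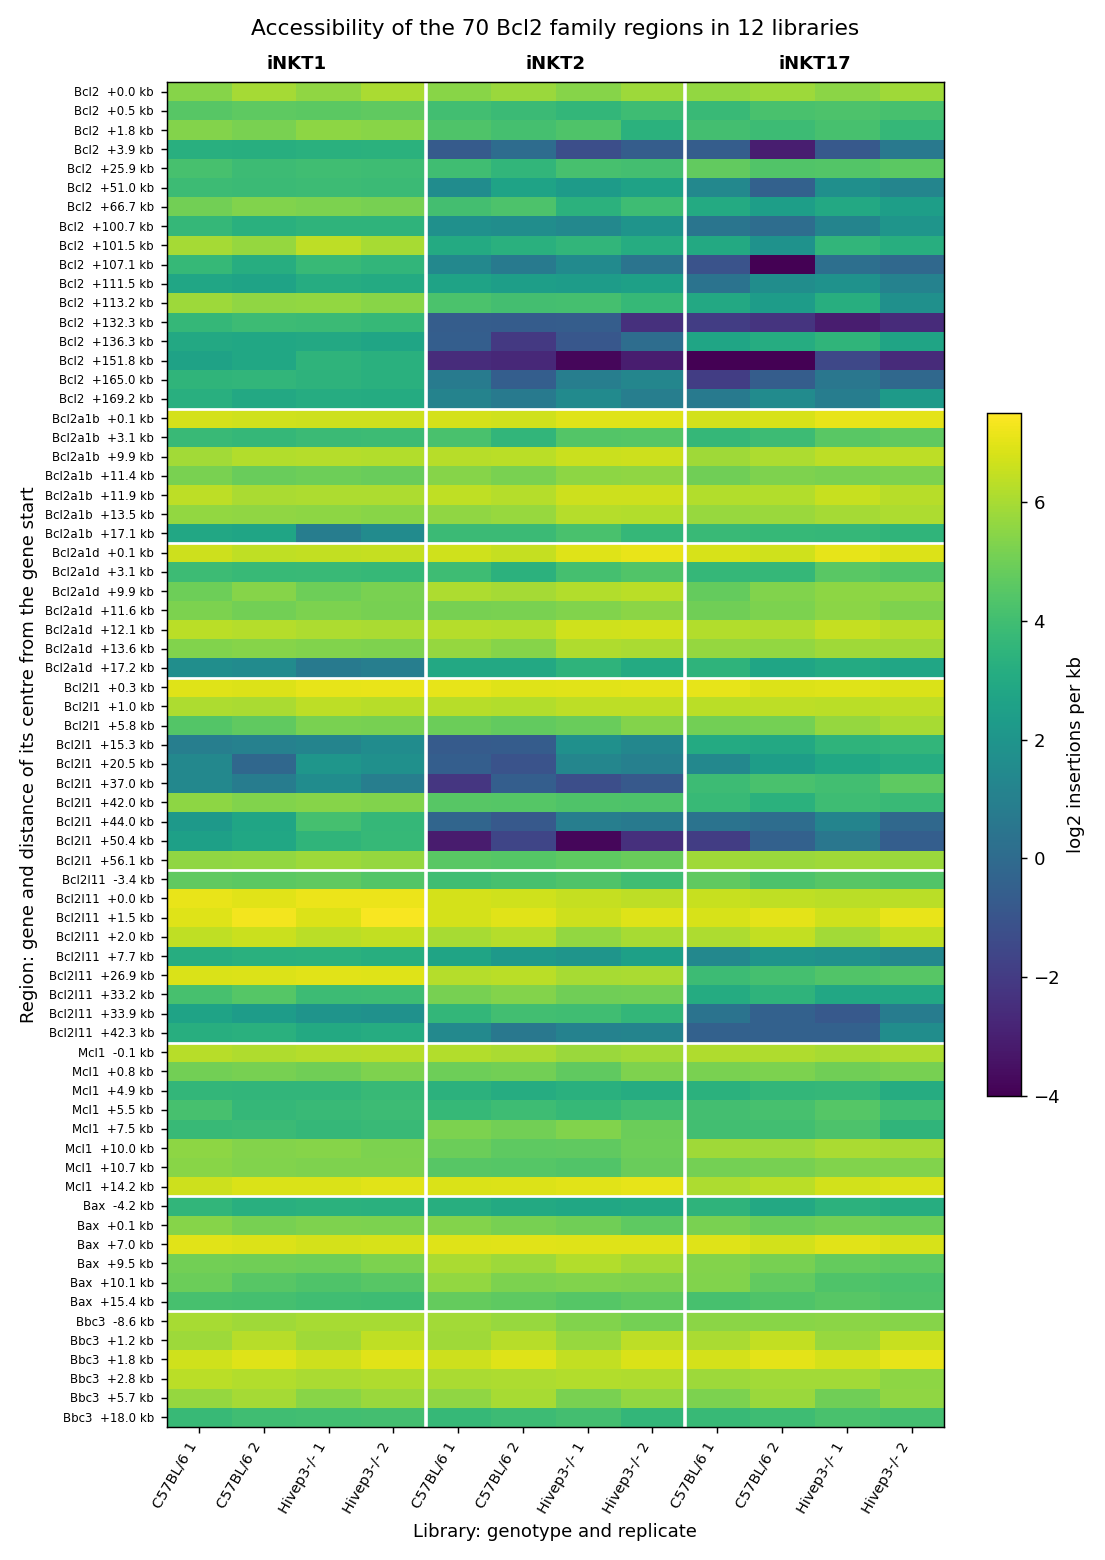
Accessibility (colour, log2 insertions per kb) of the 70 regions (rows, by gene and distance in kb of the region centre from the gene start) in the 12 libraries (columns, by subset and genotype, 2 replicates each). Most rows of Bcl2, though not those at 25.92 and 136.34 kb, are brightest in the 4 iNKT1 columns, while no row of Mcl1, Bax or Bbc3 differs by 3-fold between subsets of C57BL/6.

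Bcl2 (ENSMUSG00000057329.7, chr1:106538178-106714274 on the minus strand, GRCm38.p6, mm10) encodes the founding survival protein, and its long intron carried the largest subset differences. Of its 17 regions, 10 were called higher in iNKT1 than in iNKT2 and 12 higher than in iNKT17 cells of C57BL/6 mice, with 11 and 10 in Hivep3-/- mice, and 0 lower in any of the 4 comparisons. The one with the highest mean in iNKT1 libraries, 101.53 kb from the start, and one at 136.34 kb that was low in iNKT2 cells alone are shown by 300 bases of the plus strand of GRCm38.p6, with capitals on matches to the motifs described further below. Each window was placed to hold as many of the region's matches as it can, and centred where there was a choice. Both were chosen for printing after their values were seen.
Bcl2 +101.53 kb, chr1:106612631-106612930: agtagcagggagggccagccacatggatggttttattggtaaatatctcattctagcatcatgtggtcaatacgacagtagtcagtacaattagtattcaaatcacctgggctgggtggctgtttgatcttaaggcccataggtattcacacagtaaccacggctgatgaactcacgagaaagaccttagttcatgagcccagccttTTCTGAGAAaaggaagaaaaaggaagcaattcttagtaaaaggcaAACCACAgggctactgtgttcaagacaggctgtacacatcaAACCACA
Bcl2 +136.34 kb, chr1:106577839-106578138: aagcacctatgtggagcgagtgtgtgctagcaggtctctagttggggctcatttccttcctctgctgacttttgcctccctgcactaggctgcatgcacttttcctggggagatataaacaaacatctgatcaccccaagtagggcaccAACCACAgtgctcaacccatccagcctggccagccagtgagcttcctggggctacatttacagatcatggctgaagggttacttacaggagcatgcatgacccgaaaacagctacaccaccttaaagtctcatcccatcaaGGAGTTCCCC
The first window holds a STAT match and a pair of Runt matches, and the second holds a Runt and an NF-kB match.

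At the region 101.53 kb from the start (chr1:106612496-106612995), accessibility was 5.97 and 5.69 in C57BL/6 iNKT1, 3.04 and 3.29 in iNKT2 and 2.98 and 1.88 in iNKT17 cells, and 6.34 and 5.99, 3.57 and 3.10, and 3.58 and 3.19 in the same order in Hivep3-/- mice. The 4 iNKT1 libraries lay more than 2 log2 units above the other 8, and iNKT2 and iNKT17 overlapped. The log2 difference between iNKT1 and iNKT2 was 2.66 ± 0.30 (SE, adjusted p = 9.77e-06) in C57BL/6 and 2.83 in Hivep3-/- mice, and that between iNKT1 and iNKT17 was 3.40 (adjusted p = 6.54e-07) and 2.78. These calls held under every alternative tried. With the replicate number as a block, the difference of 0.95 between Hivep3-/- and C57BL/6 iNKT17 cells passed at any fold (adjusted p = 0.0115), which it did not without the block.

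The 3 Bcl2 regions with the largest subset differences were little accessible outside iNKT1. At 132.29 kb from the start (chr1:106581733-106582232), accessibility was 3.66 and 3.88 in C57BL/6 iNKT1, −0.61 and −0.67 in iNKT2 and −1.91 and −2.29 in iNKT17 cells, and 3.85 and 3.69, −0.61 and −2.39, and −3.06 and −2.58 in Hivep3-/- mice. The differences of iNKT1 to iNKT2 and iNKT17 were 4.41 ± 0.62 (adjusted p = 6.04e-05) and 5.87 in C57BL/6, and that to iNKT2 was 5.27 in Hivep3-/- mice. Both Hivep3-/- iNKT17 values are the lowest their libraries take, so that no fold is given for them. At 151.81 kb (chr1:106562218-106562717) the C57BL/6 values were 2.63 and 2.83, −2.52 and −2.69, and −4.05 in both iNKT17 libraries, which is the lowest value those libraries take, so that no fold is given there. In Hivep3-/- mice they were 3.5 and 3.31, −3.79 (again a lowest value) and −3.06, and −1.52 and −2.58, the last also a lowest value. In both regions all iNKT1 values were above 0 and those of the other 8 libraries below 0. The third, at 107.10 kb (chr1:106606922-106607421), had 3.72 and 3.16 in C57BL/6 iNKT1, 1.38 and 0.68 in iNKT2 and −1.06 and −4.05 in iNKT17 cells, the last again at the floor of its library.

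A region at 136.34 kb (chr1:106577687-106578186, the second sequence above) followed another order. Its accessibility was 2.96 and 2.83 in C57BL/6 iNKT1 and 2.77 and 3.10 in iNKT17, but −0.55 and −2.10 in iNKT2 cells, and in Hivep3-/- mice it was 2.96 and 2.77, 3.51 and 2.70, and −0.88 and 0.10. iNKT1 and iNKT17 overlapped and both stood above iNKT2. The difference of iNKT1 to iNKT2 was 4.22 ± 0.49 (adjusted p = 1.28e-05) in C57BL/6 and 3.26 in Hivep3-/- mice, and that of iNKT2 to iNKT17 was −4.26 and −3.5. A further region at 25.92 kb was the only one of the 17 with all iNKT17 libraries highest, from 4.37 to 4.74 against 3.56 to 4.17 in the other 8. The promoter regions differed less, with that at the start (chr1:106714056-106714555) between 5.42 and 6.02 in all 12 libraries. The promoter region at 1.8 kb (chr1:106712226-106712725) was called higher in iNKT1 than in iNKT2 cells of Hivep3-/- mice (1.65, adjusted p = 0.00013 in limma). It had 5.53 and 5.44 there against 4.33 and 3.33. The difference fell under 3-fold without Hivep3-/- iNKT2 replicate 2 (1.15) and with 1 or 5 added before the logarithm (1.58 and 1.35).

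**Figure D2:**
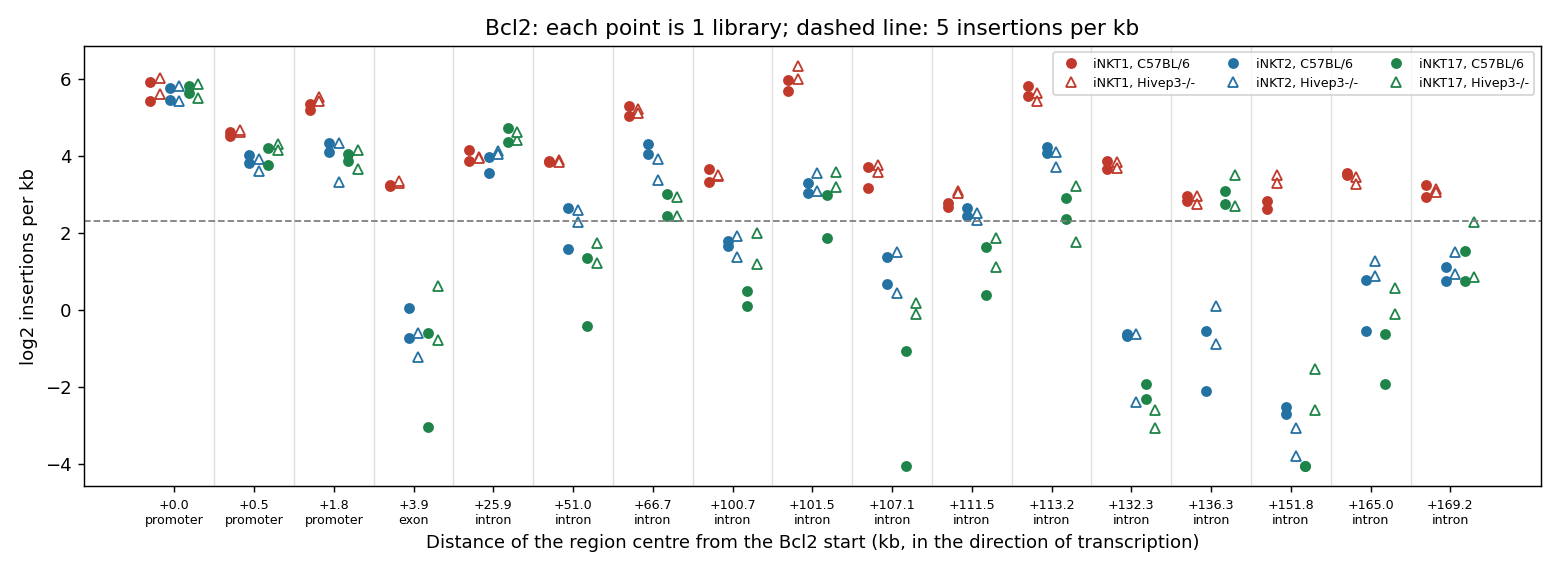
Accessibility (y axis, log2 insertions per kb) of the 17 Bcl2 regions, ordered by distance in kb of the region centre from the start (x axis), with 1 point per library, circles for C57BL/6 and triangles for Hivep3-/-. The dashed line is at 5 insertions per kb. The iNKT1 points lie above the others at 14 regions, by the most at 132.29 and 151.81 kb, and at 136.34 kb the iNKT2 points alone are low.

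Summed over the locus, Bcl2 was 8.57 and 8.54 in C57BL/6 iNKT1, 7.33 and 7.37 in iNKT2 and 7.19 and 7.15 in iNKT17 cells, and 8.70 and 8.62, 7.27 and 7.31, and 7.32 and 7.27 in Hivep3-/- mice. A locus value is the log2 of the linear values summed over the gene and its flanks of 10 kb, tested in the same way over 15405 protein-coding genes and called at an adjusted p under 0.1 at any fold. The iNKT1 level exceeded iNKT2 by 1.21 ± 0.05 (adjusted p = 1.32e-08) and iNKT17 by 1.39 ± 0.05 (adjusted p = 1e-09) in C57BL/6, and by 1.37 and 1.36 in Hivep3-/- mice. iNKT2 exceeded iNKT17 by 0.18 in C57BL/6 (adjusted p = 0.0164, and 0.100 without C57BL/6 iNKT17 replicate 2), and in Hivep3-/- mice the difference was −0.01 (adjusted p = 0.943). The genotypes differed by 0.10, −0.06 and 0.13 in iNKT1, iNKT2 and iNKT17 cells, with adjusted p of 0.407, 0.589 and 0.257, of which the last became 0.0799 with the block. The difference between the changes in iNKT2 and iNKT17 was −0.19 and passed with the block alone (adjusted p = 0.0949).

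Bcl2l1 (ENSMUSG00000007659.18, chr2:152780668-152831728 on the minus strand) encodes BCL-XL, and its 10 regions split by subset in opposite directions. In C57BL/6 cells, 2 were called higher in iNKT1 than in iNKT2, 3 higher and 2 lower than in iNKT17, and 2 lower in iNKT2 than in iNKT17. The 2 intronic regions with all 4 iNKT17 libraries highest are shown as 300 bases of the plus strand, since they carried the largest differences of the gene in that direction.
Bcl2l1 +36.95 kb, chr2:152794625-152794924: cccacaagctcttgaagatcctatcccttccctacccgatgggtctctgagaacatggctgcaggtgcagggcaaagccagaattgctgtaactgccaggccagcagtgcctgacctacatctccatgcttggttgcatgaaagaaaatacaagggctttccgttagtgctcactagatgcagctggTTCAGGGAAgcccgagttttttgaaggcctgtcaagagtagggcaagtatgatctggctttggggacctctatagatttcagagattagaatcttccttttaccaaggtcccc
Bcl2l1 +15.33 kb, chr2:152816245-152816544: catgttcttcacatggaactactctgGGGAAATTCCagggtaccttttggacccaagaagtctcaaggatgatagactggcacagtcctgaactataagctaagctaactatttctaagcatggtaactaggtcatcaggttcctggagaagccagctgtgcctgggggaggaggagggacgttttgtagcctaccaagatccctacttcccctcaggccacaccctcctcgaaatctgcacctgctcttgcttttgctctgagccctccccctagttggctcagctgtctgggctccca
The capitals are a STAT match in the first and an NF-kB match in the second.

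At 36.95 kb from the start (chr2:152794525-152795024), accessibility was 3.90 and 4.19 in C57BL/6 iNKT17, 1.35 and 0.82 in iNKT1 and −2.16 and −0.55 in iNKT2 cells, and 4.01 and 4.66, 1.60 and 0.91, and −1.22 and −0.78 in Hivep3-/- mice. The 3 subsets did not overlap. The log2 difference of iNKT1 to iNKT17 was −2.95 ± 0.50 (adjusted p = 0.000211) and that of iNKT2 to iNKT17 −5.39 ± 0.50 (adjusted p = 1.78e-06), with −3.08 and −5.34 in Hivep3-/- mice, and these calls held under every alternative tried. At 15.33 kb (chr2:152816145-152816644) the C57BL/6 values were 3.04 and 2.96 in iNKT17, 0.92 and 1.07 in iNKT1 and −0.72 and −0.67 in iNKT2 cells. In Hivep3-/- mice they were 3.49 and 3.56, 1.2 and 1.60, and 1.79 and 1.34, so that the iNKT2 libraries no longer lay below iNKT1. The difference of iNKT2 to iNKT17 was −3.69 in C57BL/6 and −1.96 in Hivep3-/- mice, and the difference between these differences was 1.73 ± 0.45 (adjusted p = 0.0788). That interaction was lost when any library was left out other than C57BL/6 iNKT1 replicates 1 and 2 and Hivep3-/- iNKT2 replicate 2 (adjusted p up to 0.197), with 1 or 5 added before the logarithm (0.168 and 0.658) and after renewed quantile normalisation (0.157).

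A region at 20.53 kb, under the level for this test in C57BL/6, was called in Hivep3-/- mice, with 2.84 and 3.10 in iNKT17 against 1.29 and 1.02 in iNKT2 cells (difference of iNKT2 to iNKT17 −1.82, adjusted p = 0.00855, and under 3-fold with 1 or 5 added before the logarithm, at −1.45 and −0.83). The 3 remaining called regions were highest in iNKT1. At 50.43 kb, in an exon (chr2:152781044-152781543), accessibility was 2.55 and 2.83 in C57BL/6 iNKT1, −3.12 and −1.59 in iNKT2 and −1.91 and −0.41 in iNKT17 cells, and 3.51 and 3.72, −3.79 and −2.39, and 0.57 and −0.55 in Hivep3-/- mice. The 4 iNKT1 libraries exceeded the other 8, with differences to iNKT2 of 5.05 ± 0.75 (adjusted p = 0.000102) in C57BL/6 and 6.71 in Hivep3-/- mice, where the value of −3.79 is the lowest its library takes. The summed locus therefore hides opposite changes, and gave 8.34 and 8.31 for C57BL/6 iNKT1, 8.18 and 8.06 for iNKT2 and 8.44 and 8.38 for iNKT17 cells. iNKT2 was the lowest, with differences of 0.21 for iNKT1 to iNKT2 (adjusted p = 0.0076) and −0.29 for iNKT2 to iNKT17 (adjusted p = 0.000864), while that of iNKT1 to iNKT17 was −0.08 (adjusted p = 0.243).

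**Figure D3:**
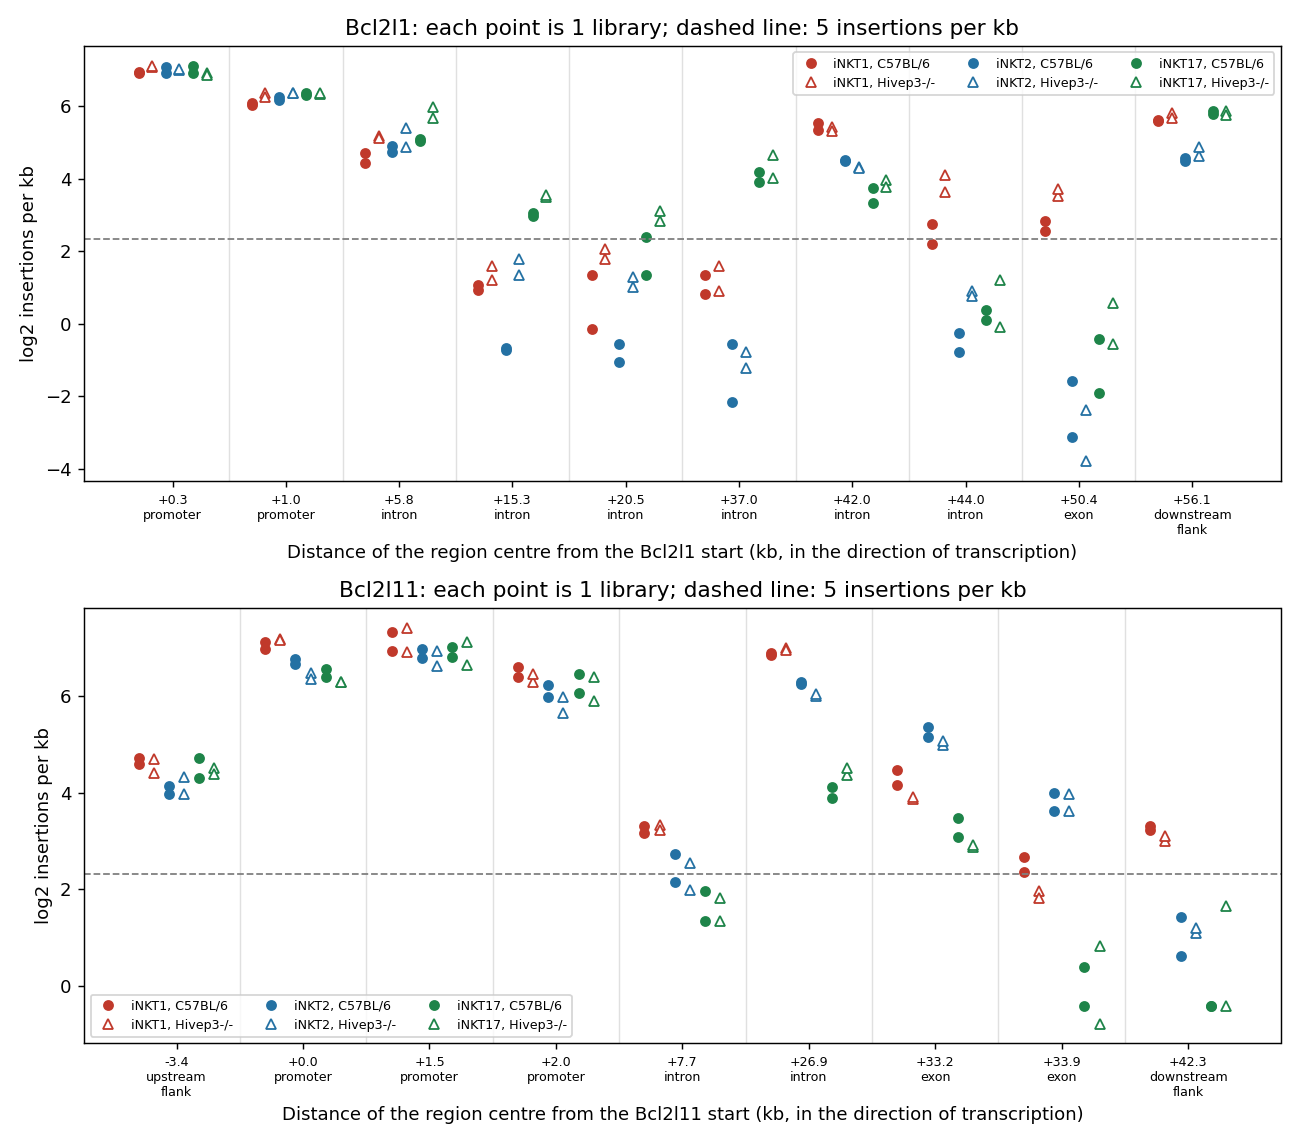
Accessibility (y axis, log2 insertions per kb) of the 10 Bcl2l1 regions and the 9 Bcl2l11 regions, ordered by distance in kb of the region centre from the start (x axis), with 1 point per library. At Bcl2l1 the iNKT17 points are highest at 15.33 and 36.95 kb and the iNKT1 points at 42.01 to 50.43 kb, and at Bcl2l11 the iNKT17 points are lowest at 26.87, 33.22 and 33.88 kb.

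Bcl2l11 (ENSMUSG00000027381.16, chr2:128126038-128162547 on the plus strand) encodes BIM, and its summed accessibility was lowest in iNKT17 cells. The strongest intronic region, 26.87 kb from the start, is shown by its central 300 bases, which hold none of the motifs searched.
Bcl2l11 +26.87 kb, chr2:128152759-128153058: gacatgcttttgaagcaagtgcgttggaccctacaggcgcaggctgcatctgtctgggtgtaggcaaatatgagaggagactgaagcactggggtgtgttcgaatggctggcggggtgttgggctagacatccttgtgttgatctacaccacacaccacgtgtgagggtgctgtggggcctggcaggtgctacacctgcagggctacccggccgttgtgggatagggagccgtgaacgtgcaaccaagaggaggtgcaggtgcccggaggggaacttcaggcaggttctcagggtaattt
Its accessibility (chr2:128152659-128153158) was 6.86 and 6.89 in C57BL/6 iNKT1, 6.24 and 6.30 in iNKT2 and 3.88 and 4.11 in iNKT17 cells, and 6.99 and 6.95, 6.01 and 6.04, and 4.37 and 4.52 in Hivep3-/- mice. No subset overlapped another, and the iNKT17 libraries stood lowest. The difference of iNKT1 to iNKT17 was 2.87 ± 0.10 (adjusted p = 5.4e-10) and that of iNKT2 to iNKT17 2.27 ± 0.10 (adjusted p = 1e-08) in C57BL/6, with 2.53 and 1.58 in Hivep3-/- mice. The last of these lay just under 3-fold and was not called.

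The same region was 0.45 ± 0.10 higher in Hivep3-/- than in C57BL/6 iNKT17 cells (adjusted p = 0.0413), a change lost without C57BL/6 iNKT17 replicate 1 (0.33, adjusted p = 0.288) or Hivep3-/- iNKT17 replicate 2 (0.37, adjusted p = 0.182). The change between genotypes differed between iNKT2 and iNKT17 cells by −0.69 ± 0.15 (adjusted p = 0.0371), which missed the threshold without C57BL/6 iNKT2 replicate 1 (0.103) or 2 (0.132) or C57BL/6 iNKT17 replicate 1 (0.117). An exonic region at 33.88 kb (chr2:128159672-128160171) had its highest level in iNKT2 cells, with 3.62 and 4.0 in C57BL/6 against 2.67 and 2.35 in iNKT1 and 0.39 and −0.41 in iNKT17 cells. iNKT2 exceeded iNKT17 there by 3.82 ± 0.45 (adjusted p = 1.31e-05) in C57BL/6 and 3.78 in Hivep3-/- mice. Downstream of the gene at 42.27 kb (chr2:128168062-128168561), the values were 3.23 and 3.31 in C57BL/6 iNKT1, 1.42 and 0.61 in iNKT2 and −0.41 in both iNKT17 libraries, a difference of iNKT1 to iNKT17 of 3.68 ± 0.53 (adjusted p = 5.33e-05). That difference was 2.42 in Hivep3-/- mice, and 1.39, under 3-fold, without Hivep3-/- iNKT17 replicate 1.

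The Bcl2l11 locus was 9.05 and 9.16 in C57BL/6 iNKT1, 8.75 and 8.85 in iNKT2 and 8.35 and 8.47 in iNKT17 cells. The differences were 0.30 ± 0.09 between iNKT1 and iNKT2 (adjusted p = 0.0151), 0.69 between iNKT1 and iNKT17 (adjusted p = 3.31e-05) and 0.39 between iNKT2 and iNKT17 (adjusted p = 0.00374). The first was lost without C57BL/6 iNKT1 replicate 2 (adjusted p = 0.106) or C57BL/6 iNKT2 replicate 1 (0.105). In Hivep3-/- mice the locus was 9.06 and 9.18, 8.55 and 8.66, and 8.20 and 8.5, in the same order. The Hivep3-/- iNKT2 locus differed from C57BL/6 by −0.19, which passed with the block (adjusted p = 0.00212) and not without it (0.214). With the block, this change also differed from that in iNKT1 cells, by 0.21 (adjusted p = 0.0152, against 0.413 without it).

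Over the 8 loci, the subset comparisons called 6, 2 and 4 in C57BL/6 (iNKT1 against iNKT2, iNKT1 against iNKT17 and iNKT2 against iNKT17), where 46.3%, 49.1% and 43.6% of all genes were called, and 6, 4 and 5 in Hivep3-/- mice (49.5%, 47.5% and 45.5%). Bax (ENSMUSG00000003873.11, chr7:45461697-45466898 on the minus strand), the pore former, was highest in iNKT2, with 8.31 and 8.17 in C57BL/6 iNKT2 against 8.05 and 7.89 in iNKT1 and 8.07 and 7.82 in iNKT17 cells. The difference of iNKT1 to iNKT2 was −0.28 ± 0.09 (adjusted p = 0.0251) and that of iNKT2 to iNKT17 0.30 ± 0.09 (adjusted p = 0.0171), with −0.33 and 0.35 in Hivep3-/- mice. In C57BL/6 the calls were lost without iNKT2 replicate 1 (adjusted p = 0.179 and 0.145), the first also without iNKT1 replicate 2 (0.184) and the second without iNKT17 replicate 2 (0.202). The Bax window also covers the promoters of Gys1 and Ftl1, and its most accessible region (6.73 to 7.0) is that of Ftl1.

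Mcl1 (ENSMUSG00000038612.16, chr3:95658788-95663176 on the plus strand), whose product is needed by most lymphocytes, and Bbc3 (ENSMUSG00000002083.13, chr7:16308393-16318205 on the plus strand), the PUMA gene, passed no subset comparison as loci. The Mcl1 locus ranged from 8.28 to 8.49 over the 12 libraries and Bbc3 from 8.25 to 8.71, and none of their regions reached 3-fold. Single flanking regions of Mcl1 nevertheless had a subset order, and the one 7.47 kb from the start (chosen after its values were seen) was 5.23 and 5.05 in C57BL/6 iNKT2 against 3.75 and 3.85 in iNKT1 and 4.0 and 4.03 in iNKT17 cells. Its difference of iNKT1 to iNKT2 was −1.34 ± 0.22 (adjusted p = 0.000227) and that of iNKT2 to iNKT17 1.13 (adjusted p = 0.000884). A neighbour at 10.03 kb had iNKT2 as the lowest subset instead, from 5.82 to 6.03 in iNKT17, 5.24 to 5.55 in iNKT1 and 4.64 to 4.97 in iNKT2 libraries of both genotypes.

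**Figure D4:**
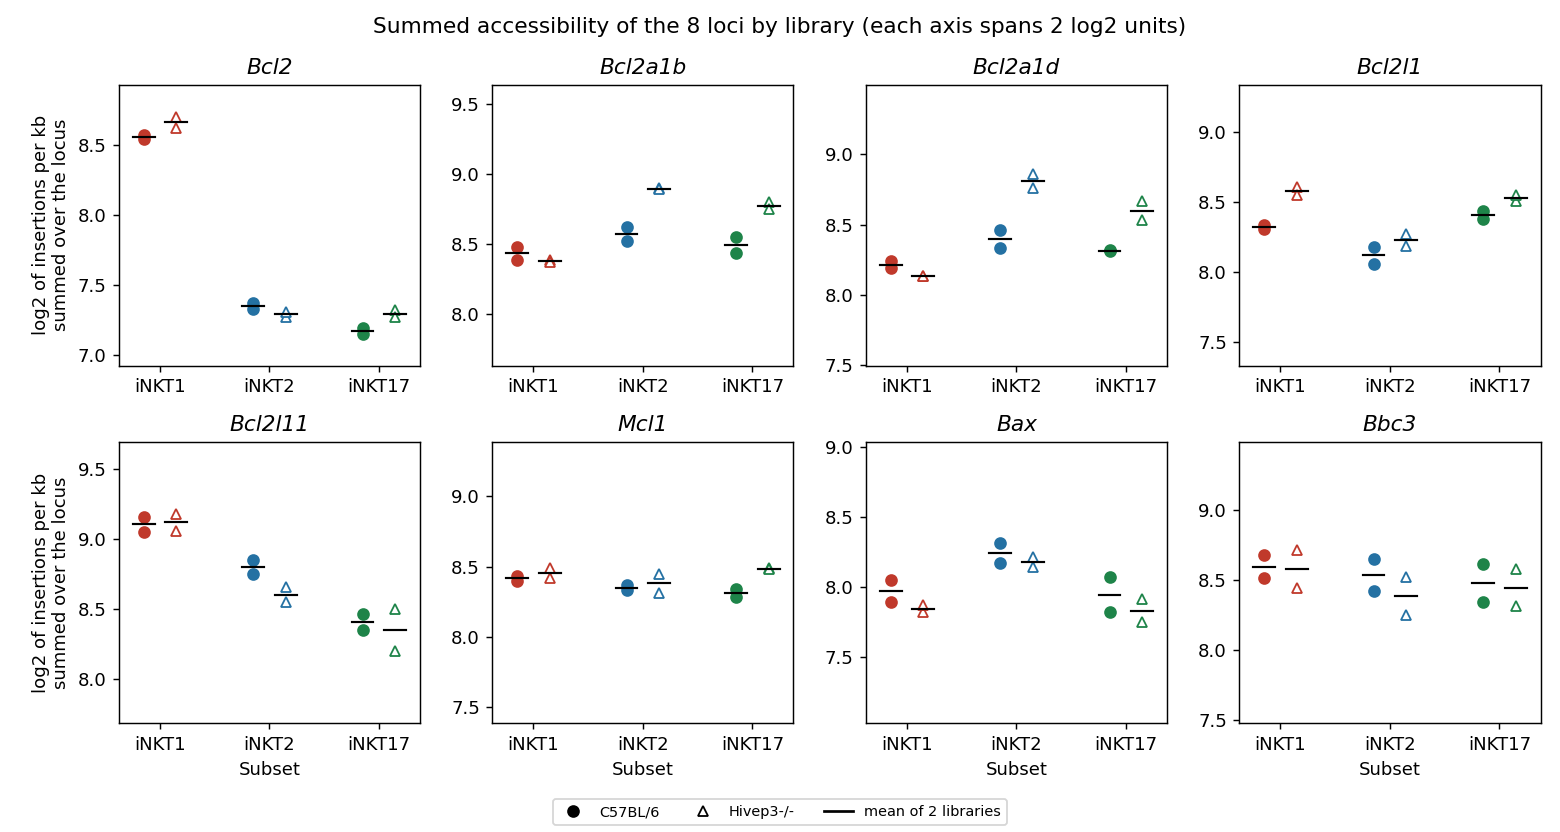
Summed accessibility (y axis, log2 of insertions per kb summed over the gene body and 10 kb on either side) of the 8 loci by subset (x axis), with 1 point per library, filled for C57BL/6 and open for Hivep3-/-, and a bar at the mean of 2 libraries. Each axis spans 2 log2 units. Bcl2 is highest in iNKT1 and Bcl2l11 falls from iNKT1 to iNKT17, while at Bcl2a1b and Bcl2a1d the Hivep3-/- libraries are above C57BL/6 in iNKT2 and iNKT17 but not in iNKT1.

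Few tested regions were called at 3-fold between genotypes, among the members as among all regions. Hivep3-/- against C57BL/6, 1 of 66 tested members was called in iNKT1 (1.15% of all tested regions). The iNKT2 cells had 0 of 56 (1.68%), and iNKT17 cells likewise 0 of 56 (0.271%). At an unadjusted p under 0.05, limma gave 6, 15 and 16 members in the 3 subsets, of which none in iNKT2 or iNKT17 was 3-fold. At any fold with an adjusted p under 0.1, 2 members were higher and 1 lower in Hivep3-/- iNKT1 cells (5.49% and 3.93% of all), 8 higher and 2 lower in iNKT2 (8.26% and 8.16%) and 7 higher and 2 lower in iNKT17 cells (2.66% and 1.99%). The median log2 difference was 0.01, 0.03 and 0.06 over the members and −0.02, 0.00 and −0.01 over all regions. With the replicate block the counts at any fold rose to 7, 17 and 14, against 14.8%, 24.8% and 11.3% of all regions.

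These counts at any fold rested on few libraries. In iNKT1 the count of 3 fell to 1 without C57BL/6 replicate 1, Hivep3-/- replicate 1 or Hivep3-/- replicate 2. In iNKT2 the count of 10 fell to 5 without C57BL/6 replicate 2 and to 4 without Hivep3-/- replicate 2, and in iNKT17 the count of 9 fell to 1 without C57BL/6 replicate 1 or Hivep3-/- replicate 2 and to 4 without Hivep3-/- replicate 1. Of the 17 regions of Bcl2, 17, 9 and 8 reached the level for the test in iNKT1, iNKT2 and iNKT17, and 0 of these passed in limma without the block, with 0, 1 and 1 at an unadjusted p under 0.05. Of the 9 Bcl2 regions under that level in iNKT17 cells, 5 had an unadjusted p under 0.05, each higher in Hivep3-/- mice, 3 of them by 1.31 to 1.73. The other 2, at 107.10 and 151.81 kb, rest on C57BL/6 libraries at their lowest value, so that no fold is given. That lowest value was −4.05 in both C57BL/6 iNKT17 libraries but −3.06 and −2.58 in the Hivep3-/- iNKT17 libraries. The part of these unequal floors in the differences at such little accessible regions was not tested.

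Most members that were higher in Hivep3-/- iNKT2 and iNKT17 cells lie in the windows of the A1 genes. Bcl2a1b (ENSMUSG00000089929.1, chr9:89199209-89207827 on the plus strand) and Bcl2a1d (ENSMUSG00000099974.1, chr9:88723285-88731914 on the minus strand) encode near-identical copies of A1, an inducible guardian of activated lymphocytes. Their windows supplied 8 of the 8 members higher in Hivep3-/- iNKT2 cells and 4 of the 7 higher in iNKT17 cells. These windows, and so the locus sums, also cover promoters of the neighbours Mthfs and Mthfsl. Among the 8, the region 12.1 kb from the Bcl2a1d start lies at a promoter of Mthfsl (0.49, adjusted p = 0.00372 in limma). Their promoter windows from RefSeq on GRCm38.p6 (chr9:89199023-89199322 and chr9:88731801-88732100) were aligned locally. The aligned parts are printed in the direction of each gene, with capitals on bases that differ or are absent in the other copy.
Bcl2a1b, chr9:89199023-89199278: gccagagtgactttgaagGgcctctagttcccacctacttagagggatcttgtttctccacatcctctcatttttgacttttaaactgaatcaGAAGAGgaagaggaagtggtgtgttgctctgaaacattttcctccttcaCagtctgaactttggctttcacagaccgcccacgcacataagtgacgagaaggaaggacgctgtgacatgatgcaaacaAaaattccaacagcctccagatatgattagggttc
Bcl2a1d, chr9:88731801-88732050: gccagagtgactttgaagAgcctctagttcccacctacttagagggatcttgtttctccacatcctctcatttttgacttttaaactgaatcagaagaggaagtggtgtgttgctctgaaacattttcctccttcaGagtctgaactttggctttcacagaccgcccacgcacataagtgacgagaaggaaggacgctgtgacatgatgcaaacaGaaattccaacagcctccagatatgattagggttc
These parts align with 247 identical bases, 3 mismatches and 6 gaps, and the rest of the windows is not in these numbers. The 7 regions of Bcl2a1b pair with the 7 of Bcl2a1d at 93.8% to 99.8% identity, and 11.1% to 66.5% of the 50-base words in these regions occur once in the genome, against 77.6% to 100% in the other members. Reads were trimmed to 50 bases, how a read that matches several copies was placed is not given in the sources used here, and so the copies cannot be read as independent. Over the 12 libraries the paired regions correlated with a Pearson r of 0.594 to 0.952.

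At the locus, Bcl2a1b was 8.62 and 8.52 in C57BL/6 and 8.90 and 8.89 in Hivep3-/- iNKT2 cells, and Bcl2a1d was 8.46 and 8.33 in C57BL/6 and 8.76 and 8.86 in Hivep3-/-. In iNKT17 cells, Bcl2a1b was 8.44 and 8.55 against 8.80 and 8.75, and Bcl2a1d was 8.32 and 8.31 against 8.67 and 8.53. In iNKT1 cells, Bcl2a1b was 8.48 and 8.39 against 8.39 and 8.37, and Bcl2a1d was 8.24 and 8.19 against 8.13 in both libraries. The genotypes did not overlap in iNKT2 or iNKT17, where Hivep3-/- was higher. The differences in iNKT2 were 0.33 ± 0.05 for Bcl2a1b (adjusted p = 0.00199) and 0.41 ± 0.06 for Bcl2a1d (adjusted p = 0.00112), and held without each library in turn. In iNKT17 they were 0.28 ± 0.05 (adjusted p = 0.0156) and 0.29 ± 0.06 (adjusted p = 0.0267). The Bcl2a1b call in iNKT17 was lost without C57BL/6 iNKT17 replicate 1 (adjusted p = 0.176), and the Bcl2a1d call without that library (0.165), C57BL/6 iNKT17 replicate 2 (0.125) or Hivep3-/- iNKT17 replicate 1 (0.152).

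In iNKT1 cells the A1 loci did not pass, with differences of −0.06 (adjusted p = 0.732) and −0.09 (adjusted p = 0.578). The changes in iNKT1 and iNKT2 cells differed by −0.38 ± 0.07 for Bcl2a1b (adjusted p = 0.0104) and −0.50 ± 0.08 for Bcl2a1d (adjusted p = 0.00503), and these calls were kept under every alternative tried. Between iNKT1 and iNKT17 the changes differed by −0.34 (adjusted p = 0.0428) and −0.37 (adjusted p = 0.0488), of which both were lost without C57BL/6 replicate 1 or either Hivep3-/- replicate of iNKT1, or replicate 1 of either genotype of iNKT17, and the second also without C57BL/6 iNKT17 replicate 2 (adjusted p up to 0.188). The distance between iNKT1 and iNKT2 at the A1 loci was thus larger in Hivep3-/- mice. In C57BL/6 mice, the difference of iNKT1 to iNKT2 was −0.14 and −0.18 (adjusted p = 0.0551 and 0.0309, both lost without C57BL/6 iNKT1 replicate 2 or iNKT2 replicate 1, up to 0.334 and 0.249), and in Hivep3-/- mice −0.52 (adjusted p = 5.89e-06) and −0.68 (adjusted p = 1.99e-06).

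The rise in iNKT2 covered most of the A1 window. All 14 A1 regions had a positive log2 difference in iNKT2 cells, from 0.10 to 0.58. The promoter regions were 0.23 (Bcl2a1b, adjusted p = 0.0529) and 0.43 (Bcl2a1d, adjusted p = 0.0155) higher in Hivep3-/- cells. Leaving out any 1 of the 4 iNKT2 libraries ended the first call (adjusted p up to 0.276), and leaving out replicate 2 of C57BL/6 (0.142) or of Hivep3-/- (0.111) the second. The downstream copies at 13.47 kb from the Bcl2a1b start and 13.63 kb from the Bcl2a1d start, chosen after their values were seen, rose by 0.55 (adjusted p = 0.00337) and 0.56 (adjusted p = 0.00481), and those calls held under every alternative. At the first, accessibility was 5.60 and 5.72 in C57BL/6 and 6.24 and 6.17 in Hivep3-/- iNKT2 cells, and at the second it was 5.66 and 5.42 against 6.14 and 6.06.

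The 1 member called at 3-fold went the other way. It lies 17.06 kb downstream of the Bcl2a1b start at a promoter of Mthfs, a neighbouring folate enzyme gene, and is printed as 300 bases of the plus strand that hold none of the motifs searched.
Bcl2a1b +17.06 kb, chr9:89216117-89216416: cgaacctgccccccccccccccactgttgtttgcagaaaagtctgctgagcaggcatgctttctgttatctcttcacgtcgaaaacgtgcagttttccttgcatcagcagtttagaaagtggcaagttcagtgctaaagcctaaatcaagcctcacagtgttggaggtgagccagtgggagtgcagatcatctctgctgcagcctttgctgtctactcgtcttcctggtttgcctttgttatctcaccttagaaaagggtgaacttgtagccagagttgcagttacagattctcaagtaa
Its accessibility (chr9:89216017-89216516) was 2.89 and 2.76 in C57BL/6 and 0.88 and 1.57 in Hivep3-/- iNKT1 cells, a difference of −1.60 ± 0.25 (3.03-fold lower, adjusted p = 0.00198). In iNKT2 cells it was 3.84 in both C57BL/6 libraries and 4.20 and 3.68 in Hivep3-/-, and in iNKT17 cells 3.80 and 3.69 against 3.68 and 3.51. The genotypes overlapped in iNKT2 alone, and Hivep3-/- iNKT1 was the lowest of the 6 groups. The change in iNKT1 differed from that in iNKT2 by −1.70 ± 0.35 (adjusted p = 0.0131) and from that in iNKT17 cells by −1.45 ± 0.35 (adjusted p = 0.057). Its copy near Bcl2a1d (chr9:88714425-88714924) had 1.67 and 1.55 in C57BL/6 and 0.70 and 0.93 in Hivep3-/- iNKT1 cells, below the level needed for the genotype test.

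The fall at this region is close to the threshold of 3-fold. It dropped under it without C57BL/6 iNKT1 replicate 1 (−1.54, adjusted p = 0.0279), without Hivep3-/- iNKT1 replicate 1 (−1.26, adjusted p = 0.0281), with 1 or 5 added before the logarithm (−1.27 and −0.71) and after renewed quantile normalisation (−1.55), with the adjusted p at most 0.0281 over the alternatives. The difference between the changes in iNKT1 and iNKT2 dropped under 3-fold without Hivep3-/- iNKT1 replicate 1 (−1.36, adjusted p = 0.059) or Hivep3-/- iNKT2 replicate 1 (−1.44, adjusted p = 0.0515), and with 1 or 5 added (−1.36 and −0.79). The difference between iNKT1 and iNKT17 missed the threshold on p without C57BL/6 iNKT1 replicate 1, Hivep3-/- iNKT1 replicate 1, either C57BL/6 iNKT17 replicate or Hivep3-/- iNKT17 replicate 1 (adjusted p up to 0.212), and with 5 added before the logarithm (0.123).

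**Figure D5:**
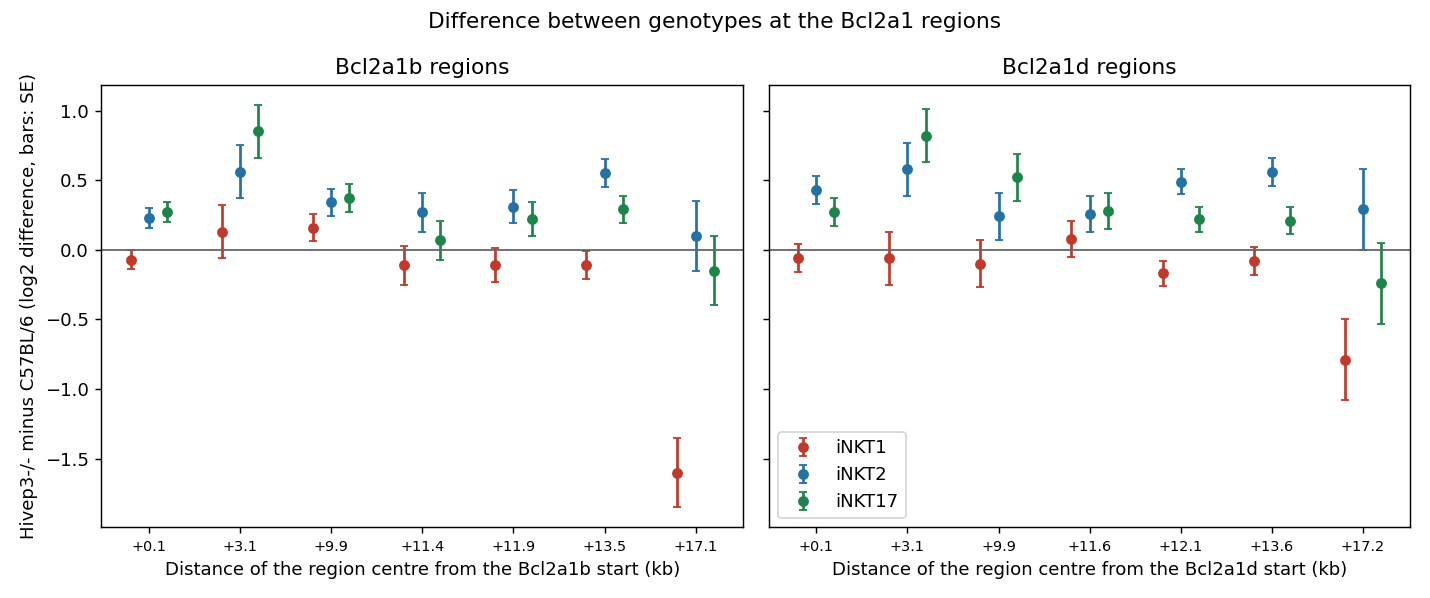
Difference between Hivep3-/- and C57BL/6 (y axis, log2 difference with SE as bars) at the 7 Bcl2a1b and the 7 Bcl2a1d regions, ordered by distance in kb of the region centre from the gene start (x axis), in each subset. In iNKT2 the 14 differences are above 0, and the lowest point is that of iNKT1 at 17.06 kb from the Bcl2a1b start, at −1.60.

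At the other genes, no tested region reached 3-fold between genotypes with an adjusted p under 0.1. Regions under the level for the test had larger differences, and at Bcl2l1 those at 15.33 and 20.53 kb were 2.26 ± 0.32 and 1.95 ± 0.50 higher in Hivep3-/- iNKT2 cells, from −0.72 and −0.67 to 1.79 and 1.34, and from −0.55 and −1.06 to 1.29 and 1.02, with no overlap and no adjusted p. The Bcl2l1 locus was 8.34 and 8.31 in C57BL/6 and 8.61 and 8.55 in Hivep3-/- iNKT1 cells, without overlap, and rose by 0.25 ± 0.05 (adjusted p = 0.016, and 0.132 without Hivep3-/- iNKT1 replicate 1). The iNKT2 and iNKT17 loci differed by 0.11 and 0.12, which passed with the block alone (adjusted p = 0.0871 and 0.0833). The 2 members higher at any fold in Hivep3-/- iNKT1 cells were both of Bcl2l1, at 5.75 kb (0.58, adjusted p = 0.0622) and at 1.04 kb from the start (0.26, adjusted p = 0.0774). The first was lost without C57BL/6 iNKT1 replicate 1 or either Hivep3-/- iNKT1 replicate and the second without any 1 of the 4 iNKT1 libraries (adjusted p up to 0.441 and 0.431). The region at 5.75 kb was also higher in iNKT17 cells, with 5.04 and 5.08 in C57BL/6 and 5.66 and 5.98 in Hivep3-/- (0.76 ± 0.17, adjusted p = 0.0357), a call lost without either C57BL/6 iNKT17 replicate or Hivep3-/- iNKT17 replicate 2 (up to 0.211).

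The region of Mcl1 with the smallest p between genotypes lay 14.25 kb from its start (chr3:95672792-95673291). It was 6.08 and 6.31 in C57BL/6 and 6.71 and 6.87 in Hivep3-/- iNKT17 cells, a rise of 0.59 ± 0.10 (adjusted p = 0.00972, and 0.107 without C57BL/6 iNKT17 replicate 1). The Mcl1 locus was 0.18 higher in Hivep3-/- iNKT17 cells, which passed with the block (adjusted p = 0.0107) and not without it (0.116). For Bax it lay 9.50 kb from the start (chr7:45457149-45457648), with 5.37 and 5.13 in C57BL/6 and 4.77 and 4.65 in Hivep3-/- iNKT17 cells, a difference of −0.54 ± 0.14 (adjusted p = 0.0687). It did not pass without C57BL/6 iNKT17 replicate 1 or either Hivep3-/- iNKT17 replicate (up to 0.407). For Bbc3 it lay 8.59 kb upstream (chr7:16299553-16300052), with 5.90 and 5.71 in C57BL/6 and 5.33 and 5.11 in Hivep3-/- iNKT2 cells, a difference of −0.59 ± 0.11 (adjusted p = 0.00542) that passed under every alternative tried. The change there differed from that in iNKT1 cells by 0.66 ± 0.16 (adjusted p = 0.0265, and 0.106 without C57BL/6 iNKT2 replicate 1), and the Bbc3 locus fell by 0.15 in iNKT2 with the block (adjusted p = 0.00719) and not without it (0.555).

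The Bcl2l11 promoter region at the start (chr2:128125747-128126246), the other member lower in Hivep3-/- iNKT2 cells, was 6.76 and 6.66 in C57BL/6 and 6.47 and 6.35 in Hivep3-/-. The difference of −0.30 ± 0.08 (adjusted p = 0.0354) was lost without C57BL/6 iNKT2 replicate 1 (0.220) or Hivep3-/- iNKT2 replicate 2 (0.175). Over the 8 loci, 1 was called between genotypes in iNKT1 (7.74% of all genes), 2 in iNKT2 (13.9%) and 2 in iNKT17 cells (4.52%), which are 3 different genes. With the block 7 of the 8 passed in at least 1 subset, where 18.1%, 28.5% and 18.2% of all genes passed in the 3 subsets. Differences between the changes of subsets called 2 loci for iNKT1 against iNKT2 (8.85% of all genes), 2 for iNKT1 against iNKT17 (3.1%) and 0 for iNKT2 against iNKT17 (2.64%), where 1 locus, Bcl2, had an unadjusted p under 0.05 in limma. Among regions, such differences of at least 3-fold were called at 1 of 67 members (3.06% of all), 0 of 70 (1.42%) and 1 of 60 (1.02%), with 12, 17 and 8 members at an unadjusted p under 0.05 in limma.

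Motif matches were counted in the 500 bp of each region on both strands, as a description that shows neither binding nor its absence. STAT (TTCNNNGAA) was in 11 of the 70 members (13.4% of all regions), in 6 of the 21 in which iNKT1 was highest, and in 5 of the 14 of these that belong to Bcl2. In the same 21 and 14 regions, Runt was in 4 and 2, bZIP in 3 and 2, TCF in 1 and 1, NF-kB and ETS each in 1 and 0, and T-box in 0 and 0. Runt (AACCACA) was in 13 (17.4% of all), NF-kB in 8 (8.6%), bZIP (TGACTCA or TGAGTCA) in 15 (11.5%), TCF (ATCAAAGG or TTCAAAGG) in 3 (5.23%) and ETS (ACAGGAAGT or ACCGGAAGT) in 2 (4.81%). T-box (AGGTGTGA) was in 0 (2.91%), which says that these letters are not in the windows. Of the 15 bZIP members, 6 are A1 regions, which share their letters as copies.

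Other genes of the pathway were taken as a list of 18, of which 16 had 64 regions. Between genotypes 0 of these regions were called by limma in any subset, with 8, 10 and 5 at an unadjusted p under 0.05 and none of them 3-fold. As loci, Pmaip1, which encodes the BH3-only protein NOXA, was higher in Hivep3-/- mice in iNKT1 (0.82, adjusted p = 0.000477), iNKT2 (0.38, adjusted p = 0.0283) and iNKT17 cells (0.38, adjusted p = 0.0619). The third A1 copy, Bcl2a1a, was 0.82 higher in Hivep3-/- iNKT2 cells (adjusted p = 0.00228), with −0.01 in iNKT1 and 0.34 in iNKT17 cells (adjusted p = 0.99 and 0.244), and its reads may be shared with the other copies. Between subsets of C57BL/6 mice, 2 loci were higher and 3 lower in iNKT1 than in iNKT2, 3 and 4 in iNKT1 than in iNKT17, and 3 and 2 in iNKT2 than in iNKT17. In Hivep3-/- mice these counts were 6 and 2, 4 and 4, and 3 and 1. Over all genes, 46.3%, 49.1% and 43.6% of loci were called in C57BL/6 and 49.5%, 47.5% and 45.5% in Hivep3-/- mice, so that 5, 7 and 5 and then 8, 8 and 4 of 16 are near or under that share. A region of Bik, another BH3-only gene, was highest in iNKT17 cells, with differences of −3.07 for iNKT1 and −2.54 for iNKT2 to iNKT17 (adjusted p = 1.09e-07 and 1.07e-06), while one of Bmf, also BH3-only, was 1.67 and 3.16 higher in iNKT1 and iNKT2 than in iNKT17 cells (adjusted p = 0.00181 and 1.35e-05). A region of Casp8, an initiator caspase, was 2.2 higher in iNKT1 than in iNKT17 cells (adjusted p = 2.97e-06).

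Likeness to other loci was measured by Pearson's r over the 12 libraries among 10008 genes with at least 3 regions. Since the libraries share subset and pool, r says how a locus follows the groups, and it is given with no test. Bcl2 was most like Itga1 (0.993), Gm49395 (0.993) and Cd244a (0.991), and Bcl2l11 most like Gm20721 (0.989), Asphd2 (0.986) and Per3 (0.984). Bcl2l1 was most like Fnbp1 (0.969), Nek6 (0.955) and Tle2 (0.953), Bax most like Ptpa (0.956), Tpmt (0.955) and Ankrd24 (0.955), and Bbc3 most like Col11a2 (0.952), Kif9 (0.951) and Hook3 (0.95). Each A1 copy was most like the other (0.982), followed by Mthfsl (0.976) for Bcl2a1b and Gm29094 (0.964) for Bcl2a1d, and by Pde4d (0.953 and 0.959). Mthfsl overlaps regions in the Bcl2a1d window and Gm29094 regions in the Bcl2a1b window, so that their r in part repeats the likeness of the copies. Mcl1, whose locus spans 0.21 log2 units over the 12 libraries, had the lowest values, with Icam1 (0.829), Fbxo9 (0.825) and Phf10 (0.821).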

How the data were processed

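ATAC-seq of 12 libraries (6 groups of 2) was analysed. The authors trimmed reads to 50 bases with Trimmomatic 0.39, ran the ENCODE pipeline on mm10, merged peaks into regions of 500 bp with chromVAR and deposited log2 insertions per kilobase after voom normalisation, 1 column per library. Read counts were not analysed here, so the depth behind a value is unknown and no counting interval is given. Distinct values up to the median, a rough trace of depth, numbered from 73 (Hivep3-/- iNKT17 replicate 2) to 491 (Hivep3-/- iNKT1 replicate 2). The lowest values of these libraries were −2.58 and −4.31. The part of depth in the differences was not tested. From the deposited log2 values, limma 3.58.1 (R 4.3.3) fitted 6 group means over all regions with trended empirical Bayes moderation, and a second fit used locus sums. P-values were adjusted by Benjamini-Hochberg over all tested regions or genes. Regions were assigned, counted and searched for motifs with Python 3.11.15, pandas 2.3.3 and GENCODE vM21, and the fit was tested on simulated data.

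The members, gene lists, motifs and tests were chosen with earlier results of these data known. All 8 genes were named with locus and promoter. Single regions were named when called between genotypes, or among the 3 called regions of a gene with the largest subset change. In a gene with no called region, the one with the smallest p between genotypes was named. The other regions were chosen after their values were seen. Some items of these lists are not reported here. Alternatives were no filter, 1 or 5 added on the linear scale, renewed quantile normalisation, the replicate number as a block, and leaving out each library. The block was a term shared by all libraries for comparisons of genotypes. For comparisons of subsets and for interactions it was a separate term for each genotype, so that these come from another fit.

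Same-numbered libraries deviated together from their group means, with r of 0.12 to 0.167 between subsets of a genotype, which were sorted and transposed together, and of 0.171, 0.145 and 0.113 between genotypes in iNKT1, iNKT2 and iNKT17. Pairs that differ in both subset and genotype gave r of 0.091 to 0.174, so that r did not set the pairs of a shared genotype or subset apart. For the genotypes the pairing rests on these values alone.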

Additional observations from a re-analysis of the deposited data

Results flagged for a closer look

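The change between genotypes differed between subsets at 2 regions by at least 3-fold and at 2 loci at any fold. The test was of the difference itself, an interaction term in limma, at an adjusted p under 0.1. Further regions of Bcl2a1b, Bcl2a1d, Bcl2l11 and Bbc3 passed this test under 3-fold and are not listed here. For the Bcl2a1b region at chr9:89216017-89216516, the change in iNKT1 minus that in iNKT2 was −1.70 (adjusted p = 0.0131). For the Bcl2a1b locus the change in iNKT1 minus that in iNKT2 was −0.38 (adjusted p = 0.0104) and minus that in iNKT17 −0.34 (adjusted p = 0.0428). For the Bcl2a1d locus these differences were −0.50 (adjusted p = 0.00503) and −0.37 (adjusted p = 0.0488), and the 2 loci are near-identical copies, so that they do not count as separate evidence. For the Bcl2l1 region at chr2:152816145-152816644, the change in iNKT2 minus that in iNKT17 was 1.73 (adjusted p = 0.0788), and the region was near closed in C57BL/6 iNKT2 cells, at −0.72 and −0.67.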

How the results depend on the processing

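Of 150 single results called, none reversed under any alternative. Calls were lost by 0 of 150 with the replicate block, 0 of 114 without the filter, 2 after renewed quantile normalisation, 14 with 1 added and 59 with 5 added on the linear scale, and 51 when a library was left out in at least 1 of the 12 cases. A lone library is then assumed to vary like the other groups. The count of members called at 3-fold between genotypes in iNKT1 went from 1 to 0 with 1 or 5 added and after quantile normalisation. Without the filter those in iNKT2 and iNKT17 went from 0 to 2 and 1. At any fold, the iNKT1 count went from 3 to 6 with 1 or 5 added. With the replicate block the counts at any fold went from 3 to 7 in iNKT1, 10 to 17 in iNKT2 and 9 to 14 in iNKT17, and loci called between genotypes from 3 to 7. The block ended and reversed none of the 150 calls, and the regions and loci it added are in these counts. With 5 added, called subset differences went in C57BL/6 from 13 to 2, 20 to 8 and 6 to 3, and in Hivep3-/- from 17 to 4, 19 to 6 and 6 to 3 (iNKT1 against iNKT2, iNKT1 against iNKT17, iNKT2 against iNKT17). Interactions at 3-fold went from 2 to 0 with 1 or 5 added and to 1 after quantile normalisation. With 1 or 5 added, differences of near-closed regions shrink by construction. The cause of the other changes was not tested.

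Leaving out each library gave, between genotypes, 0 to 1 members at 3-fold in iNKT1, 0 to 0 in iNKT2 and in iNKT17. At any fold it gave 1 to 4, 4 to 11 and 1 to 9, and for loci 2 to 4. It gave 0 to 3 interactions, with 0 without replicate 1 of Hivep3-/- iNKT1 or iNKT2. Subset differences numbered 13 to 13, 19 to 22 and 6 to 9 in C57BL/6 and 16 to 17, 19 to 21 and 6 to 8 in Hivep3-/-, and loci 6 to 7. Without the filter no locus value could be had, since loci are not filtered. The number of libraries, 2 a group, limits the precision, and depth is unknown.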
